A study of Rattus norvegicus with 30 samples.

Results

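Primary rat hepatocytes exposed to 1000 µM dioctyl phthalate for 48 h were compared with hepatocytes kept in vehicle for the same time. The comparison uses 10 of the 30 arrays of the series, 5 treated and 5 vehicle, and all 10528 genes that could be tested. Arrays were assigned by their titles, which give the time with either the dose or the vehicle alone. Both groups were commercial frozen hepatocytes from male Sprague Dawley rats, grown on collagen under a Matrigel layer and exposed from day 3 of culture. Vehicle was 1% DMSO, a solvent that the dosing solutions held too. Each array is 1 well of a 6-well plate. How many rats or vials the wells came from is not stated in the sources, so errors and p-values describe the spread between wells, which may be technical. The other 4 groups, used below only for comparison, were 250 µM at 48 h, and vehicle, 250 µM and 1000 µM at 24 h, each with 5 arrays from the same kind of culture. The labels do not say which octyl isomer the compound was.

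Phthalate diesters are plasticizers. In rat liver, the monoesters released from several of them activate PPARα, a nuclear receptor that pairs with RXR, binds repeats of AGGTCA spaced by a single base and switches on genes for the binding, transport and oxidation of fatty acids. In rats this response includes the enlargement and multiplication of peroxisomes, and PPARα activators are also known to lower acute phase and other inflammatory genes in liver cells. Hepatocytes on a dish meanwhile lose part of their liver character and build up cytoskeleton and matrix gene products.

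Before any result, the vehicle arrays themselves need describing. The 3'/5' log2 ratio of the beta-actin control probe sets, which goes up when transcripts are truncated at the 5' end, was 2.44, 1.74, 1.70 and 1.66 on vehicle replicates 1, 2, 3 and 5 and 1.04 on vehicle replicate 4. The 5 treated arrays had 1.13 to 1.51. Group means were 1.30 ± 0.137 in treated and 1.72 ± 0.494 in vehicle wells (SD, n = 5 each, exact two-sided permutation p = 0.111, adjusted p = 0.167 over 3 tests). The Gapdh ratio was 0.142 ± 0.0369 and 0.219 ± 0.0545 (exact permutation p = 0.0397, adjusted p = 0.119). The median log2 signal of an array was 8.60 and 8.57 (exact permutation p = 0.579, adjusted p = 0.579). Results are therefore given with and without the 4 vehicle arrays of raised actin ratio (replicates 1, 2, 3 and 5), hereafter the 4 vehicle arrays. Leaving them out leaves 1 vehicle array, assumed to vary like the other groups, so the same fit was also run with each of those 4 as the only vehicle array. Each of these fits called fewer genes in all than the fit with all vehicle arrays. Calls of a list that are lost without the 4 vehicle arrays therefore mix the smaller group with any part of RNA quality. The part of RNA quality in each result was not tested beyond these values.

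Of the 10 hepatocyte markers chosen for checking, 9 were on the array and all 9 stood above the low-signal limit, a log2 signal of 7.88 below which the dimmest 40% of probe sets were left out. Their summed linear signal was 442258 to 514943 per vehicle array and 393695 to 463957 per treated array, ranges that overlap. The log2 changes of all 9 nevertheless lay below 0, from -0.01 to -0.74, against a median of -0.04 over all tested genes. Calls among them, as log2 changes ± the standard error from limma that is given with every log2 change below, were Ahsg, fetuin A (-0.74 ± 0.07), and Serpina1, alpha-1 antitrypsin (-0.26 ± 0.08), both lower. Albumin (Alb) read 15.96, 15.75, 15.84, 16.06 and 16.08 on the vehicle arrays and 15.69, 15.78, 16.11, 16.18 and 15.88 on the treated arrays, with a log2 change of -0.01 ± 0.12 (adjusted p = 0.957). Signals within a group correlated across probe sets at 0.978 to 0.985 in treated and 0.968 to 0.986 in vehicle arrays. Serpina1 missed the threshold without the 4 vehicle arrays, with a log2 change of -0.31.

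At an adjusted p under 0.05 in limma, 3132 genes changed, 29.7% of those tested, with 1207 higher (11.5%) and 1925 lower (18.3%) at 1000 µM. These shares are the background against which each gene group below is read. The gene lists were chosen with earlier results of these data known, so their counts describe the lists and are no test of them. A change of at least 2-fold was seen for 199 of them (1.89%), 115 higher (1.09%) and 84 lower (0.798%). The 5 treated arrays all lay above the 5 vehicle arrays for 784 genes (7.45%) and all below for 1145 (10.9%). The median log2 change over all tested genes was -0.04. With array medians centred it was -0.08, and 798 genes were higher and 1661 lower, while quantile normalization gave 1344 and 1749. Without the 4 vehicle arrays 617 genes were higher (5.86%) and 560 lower (5.32%), and with each of those 4 as the only vehicle array 609 to 910 were higher and 702 to 1289 lower. Of the 199 genes at or over 2-fold, 162 kept their call without the 4 vehicle arrays. Over all calls, 486 of 1207 higher (40.3%) and 466 of 1925 lower (24.2%) were kept, and 279 had the opposite sign. With each of the 4 vehicle arrays as the only vehicle array, 9 to 47 of the calls had the opposite sign. A fit with the actin ratio as a covariate gave 992 higher (9.42%) and 1323 lower genes (12.6%). It kept 883 and 1183 of the calls, with the opposite sign for 1.

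Acot1, whose product is a thioesterase of the cytosol that frees fatty acids from coenzyme A, rose most. Acot1 read 9.31, 8.80, 8.37, 7.66 and 6.87 (log2 signal) on the 5 vehicle arrays and 14.42, 14.29, 14.53, 14.26 and 14.40 on the 5 treated arrays. All treated wells lay far above all vehicle wells, which varied widely among themselves. The log2 change was 6.18 ± 0.24, 72.6-fold (limma, adjusted p = 4.15e-20). Neighbouring thioesterase genes are close copies of Acot1 and can share probe sequence, which was not tested. Fabp1, the main fatty acid-binding protein of hepatocyte cytosol, read 12.97, 12.86, 12.88, 12.91 and 12.87 in vehicle and 15.31, 15.13, 15.38, 15.20 and 15.24 in treated wells. Fabp1 rose 5.13-fold (2.36 ± 0.05, adjusted p = 6.16e-27), with no overlap and little spread in either group. Ehhadh, which carries out both middle steps of beta-oxidation in the peroxisome, read 12.13, 11.62, 11.16, 10.74 and 11.71 in vehicle and 15.06, 14.90, 14.92, 14.94 and 15.13 in treated wells. Its lowest vehicle value was that of replicate 4, and the rise was 11.4-fold (3.52 ± 0.14, adjusted p = 8.78e-20). Leaving out the 4 vehicle arrays gave a log2 change of 4.25 for Ehhadh.

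Spc24, a subunit of the Ndc80 complex that ties chromosomes to the spindle, was among the strongest rises. Spc24 read 10.58, 9.96, 10.15, 10.06 and 10.21 in vehicle and 13.47, 13.44, 13.48, 13.40 and 13.42 in treated wells. The treated wells lay close together and above all vehicle wells, and the rise was 9.5-fold (3.25 ± 0.09, adjusted p = 2.3e-23). The other large rises were those of Pdk4, a kinase that shuts pyruvate dehydrogenase (2.54 ± 0.12), Lrrc39, a leucine-rich repeat protein known from muscle (2.35 ± 0.09), Cpt1b, the muscle form of carnitine palmitoyltransferase 1 (2.34 ± 0.09), Slc6a13, a GABA transporter (2.23 ± 0.09), Cyp4a1, a fatty acid omega-hydroxylase (2.13 ± 0.08), Ucp2, an uncoupling protein family member (2.06 ± 0.30), and Hilpda, a lipid droplet protein that inhibits triglyceride lipase (2.0 ± 0.08). In 4 of the 15 largest rises the vehicle mean lay under the low-signal limit, so only the distance from the limit is given. Treated wells stood at least 5.28-fold above it for Pkhd1l1, a fibrocystin-like membrane protein, 4.82-fold for Fabp3, the heart fatty acid-binding protein, 3-fold for the kinase Nim1k, and 1.71-fold for the co-chaperone Dnajb3. All 15 also rose at 250 µM and 48 h, which shares the vehicle arrays and where 41.2% of tested genes changed (15.2% higher, 26% lower), and at 24 h, which shares none. Without the 4 vehicle arrays 14 of the 15 kept their call; Dnajb3 did not (adjusted p = 0.126). The log2 change of Ucp2 was 3.07 without them. The 15 were chosen among genes whose groups did not overlap, so vehicle replicate 4 lay below all treated wells by choice.

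**Figure D1:**
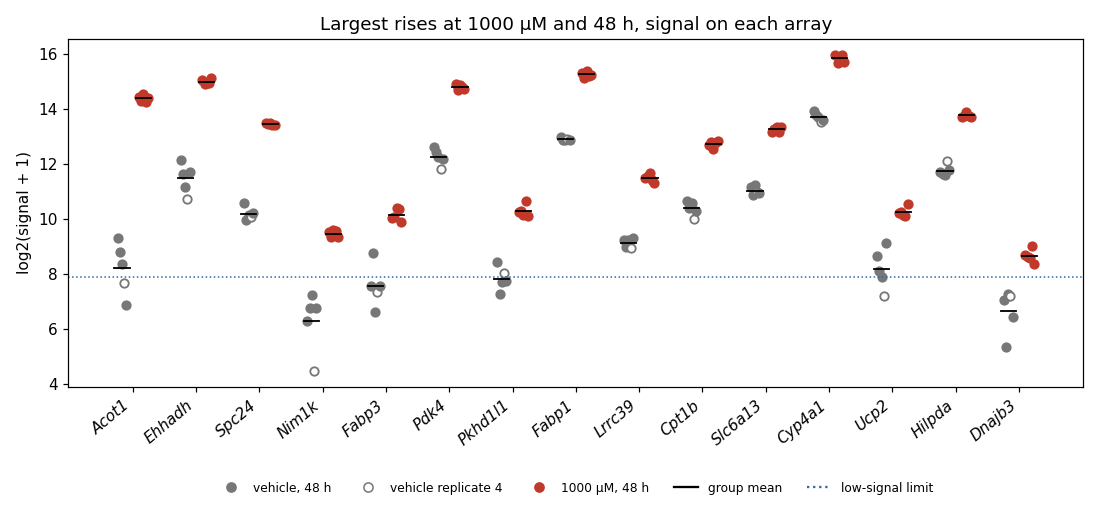
Log2(signal + 1) on each 48 h array (vertical axis) for the 15 genes of largest rise (horizontal axis); grey points are the 5 vehicle wells, the open grey point vehicle replicate 4, red points the 5 wells at 1000 µM, black bars group means and the dotted line the low-signal limit of 7.88. All red points of a gene lie above all its grey points because only genes without overlap were chosen. Vehicle wells of Acot1, Nim1k and Ucp2 spread more widely than their treated wells.

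Il1r2, the decoy receptor that binds interleukin-1 without signalling, had the largest fall. Il1r2 read 11.13, 11.13, 10.91, 11.05 and 11.14 in vehicle and 7.12, 8.08, 8.31, 7.79 and 7.52 in treated wells. The vehicle wells lay close together, whereas the treated mean lay under the low-signal limit, so the vehicle mean stood at least 9.17-fold above that limit (limma, adjusted p = 9.38e-12). Ccn2, the secreted matrix protein also called connective tissue growth factor, read 13.75, 13.70, 13.58, 13.47 and 13.52 in vehicle and 10.91, 11.13, 10.63, 10.95 and 10.69 in treated wells. It was 6.69-fold lower (-2.74 ± 0.10, adjusted p = 8.57e-21). Steap4, a metalloreductase induced by inflammation, read 13.45, 13.81, 13.60, 13.94 and 13.65 in vehicle and 11.32, 11.48, 11.71, 11.85 and 11.25 in treated wells. The groups of all 3 genes stand apart, as the rule that chose them required, and Steap4 was 4.48-fold lower (-2.16 ± 0.11, adjusted p = 1.2e-16).

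The other large falls were those of B3galnt1, a glycosyltransferase (-1.81 ± 0.10), Npy, the precursor of neuropeptide Y (-1.76 ± 0.14), Ampd3, an AMP deaminase (-1.76 ± 0.22), Gucy2c, a membrane guanylate cyclase of the gut (-1.67 ± 0.12), Cdr2, a cerebellar antigen (-1.65 ± 0.21), S100a6, a calcium-binding protein (-1.61 ± 0.08), Rab11fip5, an endosomal Rab11 partner (-1.58 ± 0.12), Abhd2, a lipase (-1.58 ± 0.10), Arrdc4, an arrestin-like protein (-1.44 ± 0.08), Vim, the intermediate filament vimentin (-1.41 ± 0.09), and Hao2, a peroxisomal hydroxyacid oxidase (-1.41 ± 0.08). LOC100912629 stood at least 3.48-fold above the limit in vehicle and had a treated mean under it. All 15 largest falls kept their call without the 4 vehicle arrays and also fell at 250 µM and 48 h. At 24 h 14 of the 15 fell, the exception being Il1r2, with -0.62 ± 0.27 (adjusted p = 0.112). The 15 were chosen among genes whose groups at 48 h did not overlap, so vehicle replicate 4 lay above all treated wells by choice.

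**Figure D2:**
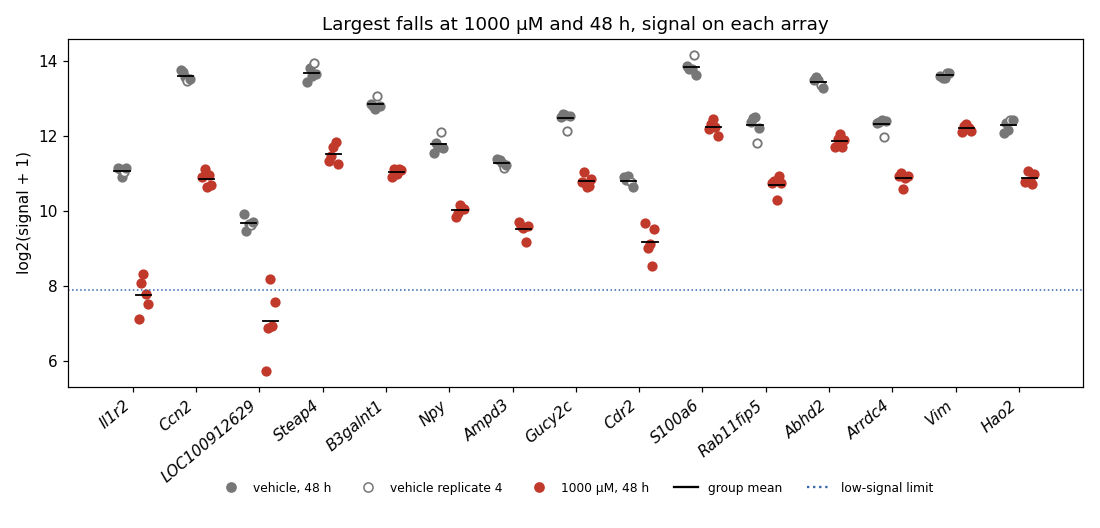
Log2(signal + 1) on each 48 h array (vertical axis) for the 15 genes of largest fall (horizontal axis); points, bars and the dotted line are as in the plot of the largest rises. All red points of a gene lie below all its grey points because only genes without overlap were chosen. Il1r2 and LOC100912629 end around or under the low-signal limit.

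Promoters are shown where a motif of a factor known for the gene group was found. For tested genes with a RefSeq promoter (8815 of 10528, 250 bases before to 50 after the start, rat build GRCr8), both strands were searched for 2 copies of AGGNCA in the same orientation with any 1 base between them, a strict spelling of the PPARα/RXR repeat (overlapping matches would count separately). It occurred in 30 of these 8815 promoters (0.340%), in 9 of 1010 genes that rose (0.891%), in 2 of 95 that rose at least 2-fold (2.11%) and in 1 of 1627 that fell (0.0615%). Both matches among the 2-fold rises are printed, Fabp1 at chr4:104749090-104749389 (plus strand) and Pdzk1 at chr2:187064745-187065044 (plus strand). Capitals mark the match, which lies 77 to 65 bases before the start on the opposite strand in Fabp1 and 80 to 68 bases before it on the gene's strand in Pdzk1.
Fabp1: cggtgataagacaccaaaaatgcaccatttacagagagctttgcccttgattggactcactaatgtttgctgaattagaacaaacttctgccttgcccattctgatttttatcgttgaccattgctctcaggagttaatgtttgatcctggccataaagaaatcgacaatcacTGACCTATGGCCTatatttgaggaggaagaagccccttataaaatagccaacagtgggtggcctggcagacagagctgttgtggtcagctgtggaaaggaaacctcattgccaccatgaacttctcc
Pdzk1: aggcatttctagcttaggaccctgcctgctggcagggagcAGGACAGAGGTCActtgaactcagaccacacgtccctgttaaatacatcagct
Pdzk1, a scaffold protein that holds the HDL receptor at the hepatocyte surface, rose by 1.31 ± 0.11 (adjusted p = 1.35e-11); it lies outside the rule for named genes and is shown for its match. None of the 15 promoters of peroxisomal beta-oxidation genes and none of the 22 of mitochondrial beta-oxidation genes held these letters in this window. A spelling of the sterol element, TCACNCCAC, was searched for in the same way. It occurred in 93 of 8815 promoters of tested genes (1.06%), 10 of 1010 that rose (0.990%) and 21 of 1627 that fell (1.29%). Among genes that rose at least 2-fold 2 of 95 held it (2.11%), the same count as for the PPARα/RXR repeat. Of those that fell at least 2-fold 0 of 64 did. The sterol element occurred in 1 of the 15 peroxisomal and 1 of the 22 mitochondrial beta-oxidation promoters. Of the cholesterol list 0 of 16 promoters held it.

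The peroxisome's beta-oxidation enzymes, which shorten very long and branched fatty acids, were almost all raised. Of 16 tested genes 15 rose and 0 fell (limma), with a median log2 change of 1.07 against -0.04 over all genes; 12 rose and 0 fell without the 4 vehicle arrays. Besides Ehhadh, the calls of smallest p were Hacl1, the lyase of alpha-oxidation (1.86 ± 0.08), Acot8, a peroxisomal thioesterase (1.40 ± 0.07), and Eci2, an isomerase for unsaturated fatty acids (1.24 ± 0.06). Proteins that build and divide peroxisomes moved less. Of 17 such genes 10 rose and 0 fell, with a median of 0.22; 5 rose without the 4 vehicle arrays. Pex19, which carries membrane proteins to the peroxisome, rose by 0.92 ± 0.08, Pex11a, which drives division, by 0.88 ± 0.05, Pex16 by 0.66 ± 0.10 and the membrane channel Pxmp2 by 0.60 ± 0.07. Of 8 other peroxisomal oxidases and catalase, 1 rose and 2 fell. Paox, a polyamine oxidase, changed by -1.04 ± 0.15, beside Hao2 above.

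In mitochondria, 23 of 26 genes of the carnitine shuttle, beta-oxidation and ketogenesis rose and 0 fell, with a median of 0.87; without the 4 vehicle arrays 21 rose and 0 fell. Cpt1a, the liver's own carnitine palmitoyltransferase 1, read 12.02, 11.80, 11.65, 11.07 and 11.58 in vehicle and 12.64, 12.62, 12.46, 12.26 and 12.73 in treated wells and rose by 0.92 ± 0.14 (adjusted p = 6.77e-06). The rise of the muscle isoform Cpt1b was larger on the log2 scale. Acot2, a mitochondrial thioesterase, rose by 1.52 ± 0.07, Acadm, the medium-chain acyl-CoA dehydrogenase, by 1.30 ± 0.06, Acat1, an acetyl-CoA acetyltransferase, by 1.10 ± 0.06, and Slc25a20, the carnitine-acylcarnitine carrier, by 0.94 ± 0.07.

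Omega-oxidation, which starts at the far end of the chain in the endoplasmic reticulum, was raised at its CYP4A step. Cyp4a1 read 13.94, 13.76, 13.69, 13.53 and 13.61 in vehicle and 15.97, 15.67, 15.90, 15.95 and 15.70 in treated wells with no overlap. Of the list's 9 tested genes 4 rose and 1 fell, against 3 and 0 without the 4 vehicle arrays. Cyp4a3 rose by 1.47 ± 0.07 and Adh4, an alcohol dehydrogenase, by 0.48 ± 0.11. Aldh3a2, the fatty aldehyde dehydrogenase, rose by 0.22 ± 0.06, and Cyp4f1, an omega-hydroxylase of another subfamily, changed by -0.61 ± 0.09. Adh4 and Cyp4f1 missed the threshold without the 4 vehicle arrays, with log2 changes of 0.10 and -0.40.

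Proteins that bind, import and activate fatty acids followed, with 12 of 22 up, 2 down and a median of 0.36; without the 4 vehicle arrays 8 rose and 2 fell. Acsl1 and Acsl3, which attach coenzyme A to long-chain fatty acids, rose by 1.80 ± 0.07 and 1.33 ± 0.06. Their relative Acsl4, which prefers arachidonate, fell (-0.41 ± 0.05), as did Fabp5, the epidermal binding protein (-0.73 ± 0.09). Of 24 genes of lipid droplets, lipases and glycerol 15 rose and 3 fell, with a median of 0.53; without the 4 vehicle arrays 14 rose and 2 fell. The 2 glycerol channels moved apart. Aqp7 read 10.85, 10.67, 10.77, 10.98 and 10.73 in vehicle and 12.61, 12.77, 12.93, 12.71 and 12.79 in treated wells, and rose by 1.96 ± 0.07. Aqp9, the main glycerol channel of hepatocytes, read 10.90, 10.82, 11.05, 11.10 and 11.07 in vehicle and 9.81, 9.50, 9.91, 9.30 and 9.80 in treated wells, and changed by -1.32 ± 0.12. Gk, glycerol kinase, rose by 1.47 ± 0.07, and Angptl4, a secreted inhibitor of lipoprotein lipase, by 1.26 ± 0.06. Lpin1, a phosphatidate phosphatase and coactivator, fell (-1.10 ± 0.10).

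Ppara itself, the receptor gene, had a vehicle mean under the low-signal limit and a treated mean at least 1.72-fold above it (limma, adjusted p = 0.00719). Its log2 signals were 6.53, 6.92, 6.75, 6.76 and 6.73 in vehicle and 8.20, 9.19, 8.89, 8.65 and 8.38 in treated wells. Vehicle wells were dim and all lay below the treated wells, and replicate 4 read much like the other 4. With replicate 4 as the only vehicle array the adjusted p was 0.281.

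**Figure D3:**
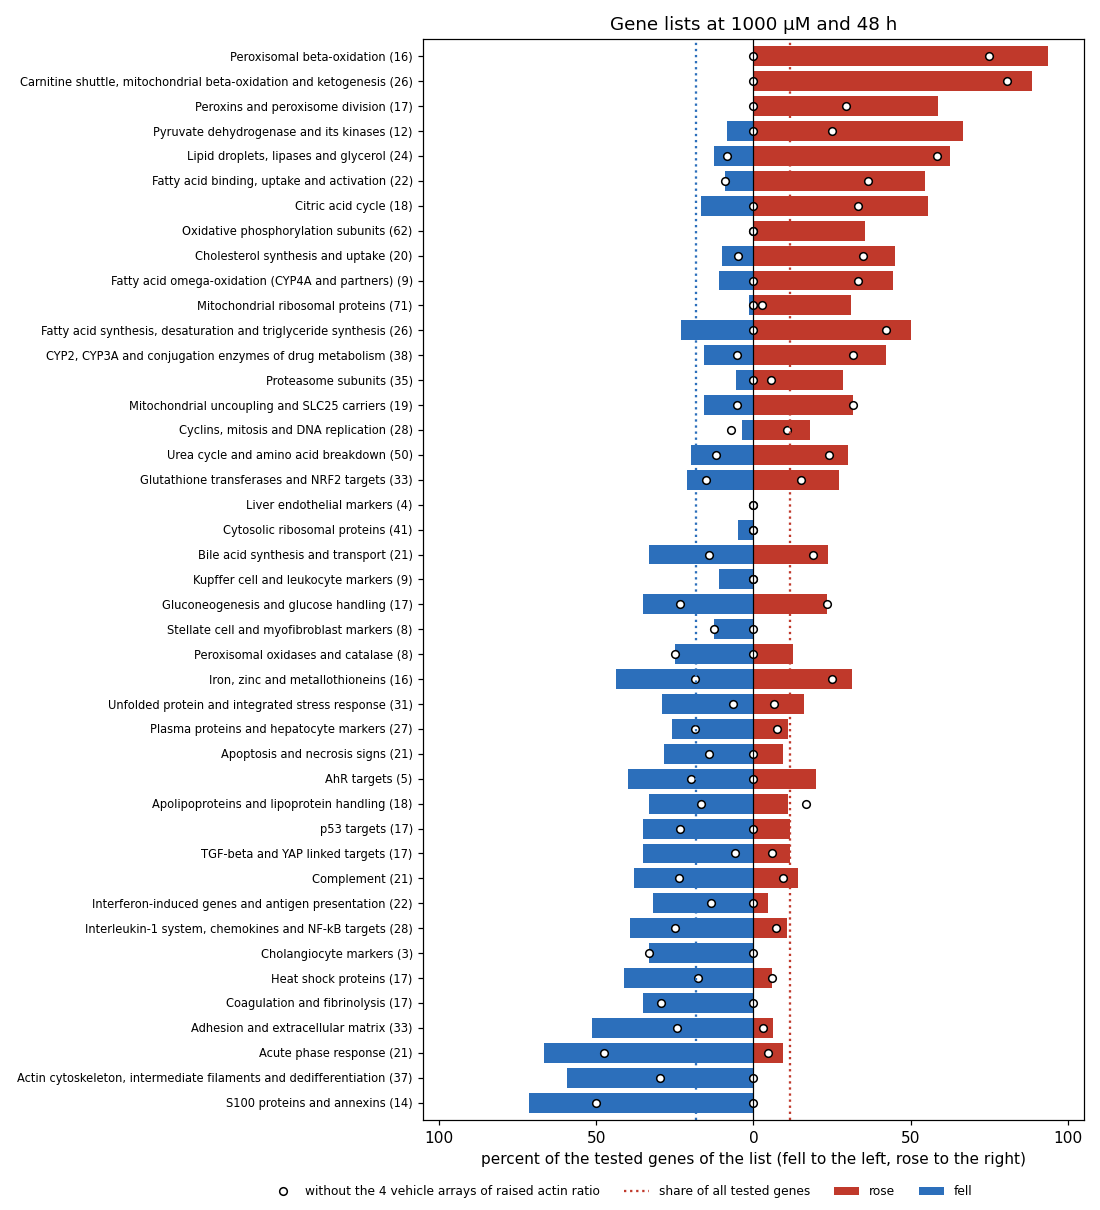
Percent of the tested genes of each of the 43 gene lists (vertical axis, number tested in parentheses) that rose (red, to the right) or fell (blue, to the left) at 1000 µM and 48 h; dotted lines are the shares over all tested genes, 11.5% and 18.3%, and open circles the shares without the 4 vehicle arrays. Lists of fatty acid breakdown lie at the top and those of acute phase, cytoskeleton and S100 genes at the bottom, and the open circle of the oxidative phosphorylation list lies at 0.

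Pyruvate dehydrogenase decides whether pyruvate is burned or spared. Pdk4 read 12.62, 12.44, 12.24, 11.83 and 12.16 in vehicle and 14.91, 14.69, 14.87, 14.79 and 14.70 in treated wells, 5.81-fold higher (adjusted p = 6.85e-18). Among 12 genes of pyruvate dehydrogenase, its kinases and pyruvate import, 8 rose and 1 fell, and without the 4 vehicle arrays 3 rose and 0 fell. Pdp2, a phosphatase that reactivates the complex, rose by 0.98 ± 0.11, Mpc2, a subunit of the pyruvate carrier, by 0.96 ± 0.06, and Pdhb, an enzyme subunit, by 0.43 ± 0.05. Pdk2, a second kinase, fell (-0.59 ± 0.10). Pdhb and Pdk2 missed the threshold without the 4 vehicle arrays, with log2 changes of 0.26 and -0.33.

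Most calls among genes of the respiratory chain and of mitochondrial ribosomes were lost without the 4 vehicle arrays. Of 62 oxidative phosphorylation subunits 22 rose and 0 fell, with a median of 0.12, but 0 rose without the 4 vehicle arrays, against 8 to 14 with each of them as the only vehicle array. Ndufv3, a complex I subunit, was among the calls (0.47 ± 0.07), as was Uqcrc2 of complex III (0.37 ± 0.06). Of 71 mitochondrial ribosomal proteins 22 rose and 1 fell, and without the 4 vehicle arrays 2 rose and 0 fell, against 8 to 12 rises with each alone. Mrps18a (0.78 ± 0.06) and Mrpl49 (0.45 ± 0.06) were the 2 that kept it. In the citric acid cycle list 10 of 18 genes rose and 3 fell, and without the 4 vehicle arrays 6 rose and 0 fell. Me1, the cytosolic malic enzyme that supplies NADPH, had 0.80 ± 0.11, Suclg1, a succinyl-CoA ligase subunit, 0.51 ± 0.04, and Idh2, an isocitrate dehydrogenase, -0.26 ± 0.06. Cytosolic ribosomal proteins gave 0 rises and 2 falls among 41. Among 35 proteasome subunits 10 rose and 2 fell, and without the 4 vehicle arrays 2 rose and 0 fell; the falls were Psmb8 (-0.35 ± 0.10) and Psmb10 (-0.58 ± 0.15), subunits of the immunoproteasome. Mitochondrial carriers gave 6 rises and 3 falls among 19, against 6 and 1 without the 4 vehicle arrays. Slc25a42, which imports coenzyme A, rose by 1.69 ± 0.10. Ndufv3, Uqcrc2, Idh2, Psmb8 and Psmb10 missed the threshold without the 4 vehicle arrays, with log2 changes of 0.24, 0.27, -0.20, -0.46 and -0.56.

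Lipid synthesis was mixed. Among 26 genes of fatty acid and triglyceride synthesis 13 rose and 6 fell, and without the 4 vehicle arrays 11 rose and 0 fell. Fads1, the delta-5 desaturase, read 12.24, 11.93, 11.94, 11.39 and 11.79 in vehicle and 13.32, 13.20, 13.15, 13.05 and 13.25 in treated wells, and rose by 1.34 ± 0.13. Elovl6, an elongase, rose by 0.88 ± 0.09, Dgat1, which makes triglyceride, by 0.77 ± 0.07, and Mttp, which loads it onto lipoproteins, by 0.77 ± 0.07. The falls included the pyruvate kinase Pklr (-0.58 ± 0.10), acetyl-CoA carboxylase (Acaca, -0.50 ± 0.07) and ATP citrate lyase (Acly, -0.31 ± 0.07). A second probe set of Acaca gave a change of 0.10, opposite in sign. Pklr, Acaca and Acly missed the threshold without the 4 vehicle arrays, with log2 changes of -0.47, -0.23 and -0.07.

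Cholesterol genes rose in 9 of 20 cases and fell in 2, and without the 4 vehicle arrays 7 rose and 1 fell. Msmo1, a sterol demethylation enzyme, had 0.55 ± 0.07, Insig1, which holds back sterol sensing, 0.46 ± 0.05, Idi1, an isoprenoid isomerase, 0.45 ± 0.06, and Fdft1, squalene synthase, 0.40 ± 0.06. Of 18 apolipoprotein and lipoprotein genes 2 rose and 6 fell, against 3 and 3 without the 4 vehicle arrays. Apoa5, which promotes triglyceride clearance, read 13.67, 13.63, 13.63, 13.87 and 13.67 in vehicle and 12.10, 12.43, 12.50, 12.29 and 12.32 in treated wells, and changed by -1.37 ± 0.07. The cholesterol exporter Abca1 changed by -0.77 ± 0.11, Lcat, which esterifies cholesterol on HDL, changed by -0.54 ± 0.08, and the receptor Vldlr by 0.45 ± 0.11. Msmo1, Idi1 and Abca1 missed the threshold without the 4 vehicle arrays, with log2 changes of 0.29, 0.21 and -0.45.

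Cyp7a1, the first and limiting step of the classic route from cholesterol to bile acids, read 10.68, 10.48, 10.38, 10.07 and 10.80 in vehicle and 9.29, 9.23, 9.0, 9.12 and 9.09 in treated wells. The groups did not overlap, and Cyp7a1 was 2.52-fold lower (-1.33 ± 0.13, adjusted p = 7.03e-10). In the bile acid list 5 of 21 genes rose and 7 fell; without the 4 vehicle arrays 4 rose and 3 fell. Cyp27a1, of the alternative pathway, changed by -0.70 ± 0.08, while Cyp8b1, which sets the share of cholic acid, changed by 0.44 ± 0.08. Abcg5, part of the sterol exporter of the canalicular membrane, rose by 1.42 ± 0.14. Nr1h4, the bile acid receptor FXR, rose by 0.61 ± 0.07, and Abcc2, a canalicular export pump, changed by -0.63 ± 0.08. Abcc2 missed the threshold without the 4 vehicle arrays, with a log2 change of -0.28.

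Among 38 drug metabolism genes 16 rose and 6 fell, and without the 4 vehicle arrays 12 rose and 2 fell. Cyp3a2, a male-specific steroid and drug hydroxylase, read 10.47, 10.61, 10.26, 10.34 and 10.82 in vehicle and 12.26, 12.13, 12.04, 12.41 and 12.32 in treated wells, 3.32-fold higher (1.73 ± 0.09, adjusted p = 4.46e-17). Its relative Cyp3a23-3a1, the classic PXR-induced gene, had 0.14 ± 0.08 (adjusted p = 0.186). Ephx2, the soluble epoxide hydrolase, rose by 1.09 ± 0.07, Cyp2c6v1 by 1.06 ± 0.06 and the carboxylesterase Ces2c by 0.97 ± 0.06. Lower were Cyp2e1, the ethanol-metabolizing P450 (-0.70 ± 0.10), Fmo5, a flavin monooxygenase (-0.70 ± 0.05), and the male-specific Cyp2c11 (-0.49 ± 0.09). Of 33 glutathione transferases and NRF2 targets 9 rose and 7 fell, against 5 and 5 without the 4 vehicle arrays. Gsta4, which clears lipid peroxidation products, rose (0.83 ± 0.05), whereas Gstp1 (-0.84 ± 0.06), Slc7a11, the cystine importer (-1.06 ± 0.09), and Srxn1, sulfiredoxin (-0.66 ± 0.07), fell. Among 5 AhR targets 1 rose and 2 fell (0 and 1 without the 4 vehicle arrays), with Cyp1a1 at -0.29 ± 0.11 and Cyp1a2 at -0.59 ± 0.08. Cyp2e1 and Cyp1a1 missed the threshold without the 4 vehicle arrays, with log2 changes of -0.46 and -0.39.

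In glucose handling 4 of 17 genes rose and 6 fell, against 4 and 4 without the 4 vehicle arrays. Pck1, the rate-limiting enzyme of gluconeogenesis, read 9.79, 9.16, 10.60, 10.16 and 9.77 in vehicle and 11.38, 11.02, 11.14, 10.67 and 11.19 in treated wells, and rose by 1.18 ± 0.18. Gckr, the glucokinase regulator, rose by 0.67 ± 0.08, Fbp1, fructose bisphosphatase, by 0.55 ± 0.06, and Gys2, liver glycogen synthase, by 0.55 ± 0.08. Among 50 genes of the urea cycle and amino acid breakdown 15 rose and 10 fell, against 12 and 6 without the 4 vehicle arrays. Oat, ornithine aminotransferase, rose most of those named (1.46 ± 0.14), followed by Hgd of tyrosine breakdown (0.82 ± 0.07) and Aadat of lysine and tryptophan breakdown (0.67 ± 0.07). Falls were those of Prodh, proline dehydrogenase (-1.06 ± 0.14), Tat, tyrosine aminotransferase (-0.91 ± 0.07), Tdo2, tryptophan dioxygenase (-0.76 ± 0.07), and Ass1 of the urea cycle (-0.76 ± 0.06).

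Genes of the acute phase, the liver's secreted answer to inflammation, mostly fell. Of 21 tested 14 fell and 2 rose, with a median of -0.49 against -0.04 over all genes; without the 4 vehicle arrays 1 rose and 10 fell. A2m, alpha-2-macroglobulin, the rat's major acute phase protein, read 15.59, 15.48, 15.51, 15.26 and 15.45 in vehicle and 14.39, 14.47, 14.15, 14.70 and 14.47 in treated wells, and changed by -1.02 ± 0.09 (adjusted p = 1.13e-10). Lbp, which presents bacterial lipopolysaccharide, read 13.38, 13.32, 13.35, 13.28 and 13.22 in vehicle and 12.05, 12.23, 12.24, 12.04 and 12.27 in treated wells, and changed by -1.14 ± 0.08. The groups of both genes stand apart. Serpina3n, a protease inhibitor, had -0.95 ± 0.06 and Cp, ceruloplasmin, -0.78 ± 0.08. The 2 rises were Crp, C-reactive protein (0.59 ± 0.08), and Cebpb, a transcription factor of the acute phase (0.51 ± 0.06). Crp missed the threshold without the 4 vehicle arrays, with a log2 change of 0.23.

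Other secreted defence proteins fell in part. Of 21 complement genes 8 fell and 3 rose, and without the 4 vehicle arrays 2 rose and 5 fell. The proteases that start the classical pathway both fell, with changes of -1.0 ± 0.12 for C1r and -1.02 ± 0.07 for C1s, and C3 changed by -0.71 ± 0.09. Higher were C5 (0.52 ± 0.11) and the mannose-binding lectin Mbl1 (0.52 ± 0.08). Of 17 coagulation genes 6 fell and 0 rose, 5 of them falling without the 4 vehicle arrays. They include F5, factor V (-0.73 ± 0.09), Fgb, the fibrinogen beta chain (-0.55 ± 0.07), Plg, plasminogen (-0.48 ± 0.07), and Proc, protein C (-0.42 ± 0.06). Of 27 plasma proteins and hepatocyte markers 7 fell and 3 rose (5 and 2 without the 4 vehicle arrays), with Itih1 at -0.78 ± 0.09, Ahsg, fetuin A, at -0.74 ± 0.07 and Afm, the albumin relative afamin, at 0.85 ± 0.07. C3 missed the threshold without the 4 vehicle arrays, with a log2 change of -0.30.

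Among 28 genes of the interleukin-1 system, chemokines and NF-kB targets 11 fell and 3 rose, and without the 4 vehicle arrays 2 rose and 7 fell. Beside Il1r2 and Steap4, the chemokine Cxcl16 (-0.91 ± 0.13) and Tnfaip3, the NF-kB brake A20 (-0.82 ± 0.08), fell. A pair of chemokines went the other way. Cxcl9, which attracts T cells, read 10.70, 10.96, 11.09, 11.52 and 10.96 in vehicle and 12.21, 12.06, 12.69, 12.37 and 12.31 in treated wells, and rose by 1.28 ± 0.11. Cxcl12, which holds blood stem cells in place, read 9.44, 9.36, 9.80, 9.28 and 9.61 in vehicle and 10.72, 10.76, 10.68, 10.68 and 10.69 in treated wells, and rose by 1.21 ± 0.11. Of 22 interferon-induced and antigen presentation genes 7 fell and 1 rose, and without the 4 vehicle arrays 0 rose and 3 fell. Tap1, the peptide transporter of antigen presentation, changed by -1.09 ± 0.15, and the antiviral gene Rsad2 by -0.93 ± 0.16. Rsad2 missed the threshold without the 4 vehicle arrays, with a log2 change of -0.59.

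Cytoskeletal genes changed in 1 direction. Of 37 genes of the actin cytoskeleton, intermediate filaments and hepatocyte dedifferentiation 22 fell and 0 rose, with a median of -0.26. Without the 4 vehicle arrays 11 fell, and 14 to 18 fell with each of them as the only vehicle array. Vim, which hepatocytes gain as they dedifferentiate in culture, read 13.60, 13.56, 13.56, 13.69 and 13.69 in vehicle and 12.11, 12.25, 12.32, 12.21 and 12.14 in treated wells, 2.66-fold lower. Acta1, skeletal muscle actin, changed by -1.33 ± 0.15, the tropomyosin Tpm4 by -0.74 ± 0.05 and the tubulin Tubb4b by -0.33 ± 0.04. Among 14 S100 proteins and annexins 10 fell and 0 rose, with a median of -0.34; 7 fell without the 4 vehicle arrays. S100a6 read 13.87, 13.80, 13.78, 14.17 and 13.63 in vehicle and 12.18, 12.31, 12.46, 12.24 and 12.01 in treated wells, 3.05-fold lower (adjusted p = 1.57e-17). S100a13 (-0.67 ± 0.09), Anxa3 (-0.49 ± 0.08) and S100a10 (-0.42 ± 0.05) fell less.

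Adhesion and matrix genes gave 17 falls and 2 rises among 33, and without the 4 vehicle arrays 1 rose and 8 fell. Fn1, fibronectin, read 15.03, 15.09, 14.94, 14.80 and 14.97 in vehicle and 13.81, 13.84, 13.48, 13.72 and 13.86 in treated wells, and changed by -1.22 ± 0.07. The cadherins of cell contacts Cdh1 (-0.88 ± 0.08) and Cdh2 (-0.84 ± 0.06) and the proteoglycan Sdc4 (-0.65 ± 0.05) fell too. Of 17 TGF-beta and YAP linked genes 6 fell and 2 rose, and without the 4 vehicle arrays 1 rose and 1 fell, the fall being that of Ccn2. Ccn1, the close relative of Ccn2, changed by -0.86 ± 0.17, Tgfbi, a secreted matrix protein, by -0.55 ± 0.08 and Id1, an inhibitor of helix-loop-helix factors, by 1.0 ± 0.12. Ccn1 and Tgfbi missed the threshold without the 4 vehicle arrays, with log2 changes of -0.86 and -0.31.

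Ccn2 is a textbook target of YAP, which acts through TEAD factors that bind GGAATG. Its promoter (chr1:22624565-22624864, minus strand, GRCr8, from RefSeq) held these letters 3 times, on the gene's strand, at 166 to 161, 101 to 96 and 92 to 87 bases before the start. Both strands were searched, and 1004 of 8815 promoters of tested genes held at least 1 match (11.4%). So did 176 of 1627 genes that fell (10.8%) and 10 of 64 that fell at least 2-fold (15.6%). Of genes that rose, 125 of 1010 held a match (12.4%), and of those that rose at least 2-fold 10 of 95 (10.5%). The stretch around the 3 matches of Ccn2 is printed with the matches in capitals.
Ccn2: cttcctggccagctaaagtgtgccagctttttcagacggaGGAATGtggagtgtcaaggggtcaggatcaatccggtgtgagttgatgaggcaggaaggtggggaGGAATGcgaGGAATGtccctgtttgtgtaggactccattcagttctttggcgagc
A match describes the letters only, and binding was not measured.

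Stress response genes changed in both directions. The lists in this paragraph are read against 11.5% higher and 18.3% lower over all tested genes. The median log2 change of the unfolded protein and integrated stress response list was -0.06, against -0.04 over all genes. Of 31 genes of the unfolded protein and integrated stress response 5 rose and 9 fell; without the 4 vehicle arrays 2 rose and 2 fell. Atf3 (-0.74 ± 0.12) and Chac1 (-0.67 ± 0.11), both induced by the stress factor ATF4, and the endoplasmic reticulum chaperone Hsp90b1 (-0.42 ± 0.06) had lower levels, and the hormone Fgf21, also a PPARα target, had 0.50 ± 0.11. Among 17 heat shock proteins 7 fell and 1 rose (3 and 1 without the 4 vehicle arrays), with Cryab (-0.75 ± 0.08) and Hspb1 (-0.65 ± 0.11), both small chaperones, among the falls. Of 17 p53 targets 6 fell and 2 rose (4 and 0 without the 4 vehicle arrays), with Ccng1 at -0.88 ± 0.06 and Sesn1 at -0.87 ± 0.11. In the list of apoptosis and necrosis signs 2 of 21 rose and 6 fell, against 0 and 3 without the 4 vehicle arrays. Iron, zinc and metallothionein genes gave 5 rises and 7 falls among 16 (4 and 3 without the 4 vehicle arrays), with Mt2A at -0.29 ± 0.07 and the iron importer Slc11a2 at 0.64 ± 0.07. Cell cycle genes gave 5 rises and 1 fall among 28, and without the 4 vehicle arrays 3 rose and 2 fell. Beside Spc24, Ccnd1, cyclin D1, rose by 1.0 ± 0.11 and Cdk2 by 0.68 ± 0.13. Atf3, Hsp90b1, Fgf21 and Cdk2 missed the threshold without the 4 vehicle arrays, with log2 changes of -0.52, -0.32, 0.54 and 0.39.

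Some lists had 0 calls in a direction in limma, and their genes at an unadjusted p under 0.05 were counted too. The carnitine shuttle and beta-oxidation list then held 1 fall. The peroxisomal beta-oxidation, peroxin and oxidative phosphorylation lists held 0 falls, and the coagulation, cytosolic ribosomal, actin and S100 lists 0 rises. Without the 4 vehicle arrays the directions with 0 calls held 0 to 3 genes at that threshold, except for 6 rises of oxidative phosphorylation subunits.

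Markers of other liver cells were read as a check on what the wells held. Stellate cell markers stood above the low-signal limit in 5 of 10 cases, Kupffer cell and leukocyte markers in 7 of the 11 on the array, endothelial markers in 2 of 7 and cholangiocyte markers in 2 of 5. Their summed linear signal per array was 3576 to 4099 in vehicle and 3330 to 4580 in treated wells for stellate cells, 9675 to 11592 and 9033 to 10030 for Kupffer cells and leukocytes, 832 to 1752 and 1156 to 1726 for endothelium, and 13268 to 16604 and 12017 to 14153 for cholangiocytes, so the groups overlap for each type. Calls among these markers were Cd68 of macrophages (-0.53 ± 0.19) and Epcam of bile duct cells (-0.16 ± 0.05), both lower. Vim, which stellate cells and fibroblasts also make, was not among the markers used here and fell as described above. Fewer cells of a type and less RNA per cell cannot be told apart here. The part of these cells in the falls of inflammatory and cytoskeletal genes was not tested. Cd68 missed the threshold without the 4 vehicle arrays, with a log2 change of -0.73.

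The 2 doses were compared directly at 48 h, without the vehicle arrays. At an adjusted p under 0.05, 7 of 10528 genes differed (0.0665%), 4 higher (0.038%) and 3 lower (0.0285%) at 1000 than at 250 µM, and 1297 differed at an unadjusted p under 0.05. The higher ones were Ints7, an Integrator subunit (1.43 ± 0.26), Masp1, a complement protease (0.49 ± 0.10), Cdh2 (0.34 ± 0.06) and the kinase scaffold Cab39 (0.30 ± 0.06). The lower ones were Rup2 (-0.43 ± 0.06), the mitochondrial ribosomal protein Mrpl27 (-0.30 ± 0.05) and Fabp1 (-0.29 ± 0.05). Against the same vehicle arrays Fabp1 was raised by 2.64 ± 0.05 at 250 µM and 2.36 ± 0.05 at 1000 µM. Masp1 changed by -1.07 ± 0.10 at 250 µM and -0.58 ± 0.10 at 1000 µM, and Cdh2 by -1.18 ± 0.06 and -0.84 ± 0.06. Against vehicle, at least 1 other probe set of Ints7 and of Rup2 had the opposite sign to the one tested. For the genes of largest change the difference between doses missed the threshold after adjustment over all genes, with unadjusted 95% intervals of -0.98 to -0.02 for Acot1, -0.43 to 0.14 for Ehhadh, -0.27 to 0.06 for Cyp4a1, -0.39 to 0.09 for Pdk4 and 0.21 to 0.61 for Ccn2 (log2, 1000 minus 250 µM). Those of Acot1 and Ccn2 did not include 0. No interval is given for Il1r2, whose mean at 1000 µM lay under the low-signal limit. The unadjusted 95% interval reached 0.23 to either side for the median gene. Calls were made on p-values adjusted over all genes, so differences larger than 0.23 could be missed too. The number of calls moved between 1 and 20 when single arrays were left out.

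The same dose against vehicle at 24 h used other wells and other vehicle arrays, and there 2051 genes changed (19.5%), 872 higher (8.28%) and 1179 lower (11.2%). Of the 1207 genes higher at 48 h, 647 were also higher at 24 h (53.6%, and 74.2% of the 872), and of the 1925 lower at 48 h, 885 were lower at 24 h (46.0%, and 75.1% of the 1179). Opposite calls numbered 3 and 4. Among the 199 genes at or over 2-fold at 48 h, 164 had been called in the same direction at 24 h and 0 in the opposite one. Across the 10528 genes the log2 changes at the 2 times correlated with a Pearson r of 0.714, a description across genes, which are not independent. By list, 13 peroxisomal beta-oxidation genes rose at 24 h and 15 at 48 h, and 23 mitochondrial ones rose at each time. Oxidative phosphorylation gave 6 rises at 24 h and 22 at 48 h. Its median log2 change was 0.03 at 24 h and 0.12 at 48 h, and 0.03 at 48 h without the 4 vehicle arrays. When the difference between times was itself tested (limma), 0 of its 62 genes were called. The acute phase list gave 8 falls at 24 h and 14 at 48 h, and the cytoskeletal list 23 and 22. The acute phase median was -0.24 at 24 h, -0.49 at 48 h and -0.37 at 48 h without the 4 vehicle arrays. Of its 21 genes 1 had a higher and 2 a lower change at 48 h in that test.

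**Figure D4:**
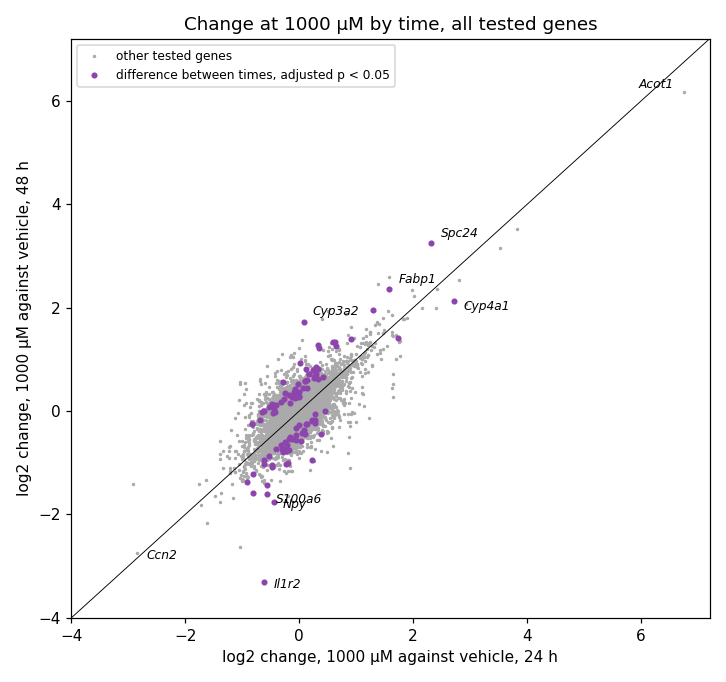
Log2 change at 1000 µM against vehicle at 24 h (horizontal axis) and at 48 h (vertical axis), 1 point per tested gene; purple points are the 102 genes whose change differed between times in limma's interaction test, and the line marks equal changes. Ccn2 lies close to the line, Cyp3a2, Fabp1 and Spc24 above it and Il1r2, Npy and S100a6 below it.

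The effect of 1000 µM differed between 48 and 24 h for 102 genes (0.969%) in the interaction test, 55 with a higher (0.522%) and 47 with a lower value (0.446%) at 48 h. Of these, 42 had changed at 48 h only, 13 at 24 h only, 40 at both times in one direction and 7 in opposite directions. In vehicle wells 63 of the 102 changed between 24 and 48 h, against 2963 of all tested genes (28.1%, 16.4% higher and 11.7% lower at 48 h), a comparison that shares the vehicle arrays. Cyp3a2 had the largest positive difference. Its vehicle level fell over culture time (-2.11 ± 0.09, adjusted p = 1.44e-18), from a mean of 12.60 at 24 h to 10.50 at 48 h, while treated wells had means of 12.68 and 12.23. The change at 1000 µM was thus 0.08 ± 0.09 at 24 h and 1.73 ± 0.09 at 48 h (difference 1.66 ± 0.12, adjusted p = 9.04e-11). Cxcl9 moved the same way, with 0.34 ± 0.11 at 24 h, 1.28 ± 0.11 at 48 h and a vehicle change of -0.98 ± 0.11 (difference 0.94 ± 0.15, adjusted p = 0.000417). Its highest vehicle reading at 48 h was that of replicate 4, against which the change at 48 h and the difference between times are smaller. Differences between times of single genes are given here with all vehicle arrays only.

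Fabp1 rose further with time, from 1.58 ± 0.05 at 24 h to 2.36 ± 0.05 at 48 h (difference 0.78 ± 0.07, adjusted p = 1.29e-08), in treated wells from a mean of 14.62 to 15.25. Spc24 did likewise, from 2.32 ± 0.09 to 3.25 ± 0.09 (difference 0.93 ± 0.13, adjusted p = 7.22e-05). Cyp4a1 went the other way, from 2.72 ± 0.08 at 24 h to 2.13 ± 0.08 at 48 h (difference -0.59 ± 0.11, adjusted p = 0.00556). The remaining largest positive differences were those of Adgrv1, an adhesion receptor (0.92 ± 0.18), and Sult2a6, a sulfotransferase (0.88 ± 0.16).

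Falls deepened for a small set. Il1r2 had a 24 h treated mean of 10.27 and a 48 h treated mean of 7.76, under the low-signal limit, with vehicle means of 10.88 and 11.07 (adjusted p of the difference = 7.22e-05). Npy changed by -0.45 ± 0.14 at 24 h and -1.76 ± 0.14 at 48 h (difference -1.31 ± 0.20, adjusted p = 0.000207). S100a6 changed by -0.56 ± 0.08 and -1.61 ± 0.08 (difference -1.05 ± 0.11, adjusted p = 2.14e-07). A2m had -0.24 ± 0.09 and -1.02 ± 0.09 (difference -0.78 ± 0.13, adjusted p = 0.000744). Arrdc4 had -0.57 at 24 h and -1.44 at 48 h (difference -0.87 ± 0.12). For Gpx8, a peroxidase of the endoplasmic reticulum, the sign turned, from 0.22 at 24 h to -0.95 at 48 h (difference -1.17 ± 0.26). Treated wells of Gpx8 at 48 h were dim, at 8.20 to 9.01 against the low-signal limit of 7.88. For Acot1 (-0.57 ± 0.33, adjusted p = 0.522) and Ccn2 (0.10 ± 0.14, adjusted p = 0.84) the difference missed the threshold. Without the 4 vehicle arrays 38 genes differed between times, 322 did without vehicle 48 h replicate 4, and 16 did with array medians centred.

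**Figure D5:**
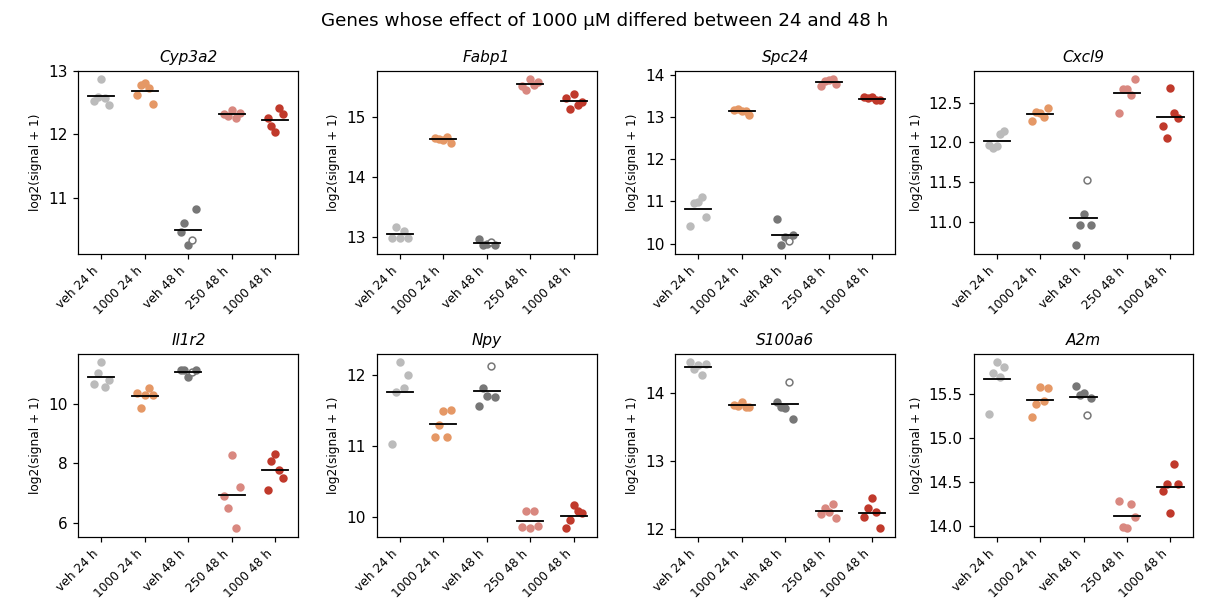
Log2(signal + 1) on each array (vertical axis) for 8 genes whose change at 1000 µM differed between 24 and 48 h, by group (horizontal axis: vehicle and 1000 µM at 24 h, then vehicle, 250 µM and 1000 µM at 48 h); points are wells, the open point vehicle 48 h replicate 4, and bars group means. Cyp3a2 and Cxcl9 differ mainly in the vehicle level at 48 h, and Il1r2, Npy, S100a6 and A2m in the treated level.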

How the data were processed

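RNA of 30 cultures, 5 in each of 6 groups, was measured on Affymetrix arrays. The deposited table holds 1 linear intensity per probe set and array, computed by the authors with MAS5 per the submitters' processing notes, which give no version. Each array had been scaled by the authors, since means trimmed by 2% at both ends were 1500.6 to 1500.7. Scaling to a common mean hides any change in total RNA, so changes are relative. From 31099 probe sets, 57 controls and the dimmest 40% were left out (log2 limit 7.88, signal 234). Probe sets with 1 gene symbol numbered 20826 on the whole array, while 436 had several and 9780 none in the platform table. The brightest probe set per symbol gave 10528 genes.

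Signals were tested as log2(signal + 1) in limma 3.58.1 (R 4.3.3). The model had 6 group means fitted to all 30 arrays, a variance trend and Benjamini-Hochberg adjustment over all tested genes. No batch is named in the labels. The procedure was tested on simulated data. Alternatives covered scaling, filter, pseudocount, variance trend, probe sets per gene, the arrays fitted, arrays left out and RNA quality. Arrays measure signal over background, and their number limits precision.

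Members and the 43 gene lists (1269 entries, 977 distinct genes tested) were chosen with earlier results of these data known. Genes were named by rule: the 15 largest rises and 15 largest falls without overlap, up to 4 changed members per list and direction by smallest p, the 5 largest rises and falls between doses and between times, and a fixed set of 13 (11 tested). The rule gave 250 genes, of which the text prints those it describes; Serpina1 was added after its value was seen. Of the 59 with several probe sets, 51 had 1 sign throughout. Promoters came from RefSeq (GRCr8).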

Additional observations from a re-analysis of the deposited data

Results flagged for a closer look

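For the 178 genes named above and 3 quality measures, the 5 arrays of each 48 h group were searched for 1 array far from the rest, by its gap to the nearest other array as a share of the group's range. Of 362 groups, 22 had a share above Dixon's 95% critical value, and chance alone gives about 1 in 20. Of the 9 cases in vehicle wells, 7 concerned replicate 4, the 1 vehicle array without a raised actin ratio. They were Mttp (13.28 on vehicle replicate 4, 13.61 to 13.72 on the others; 0.757), Apoa5 (13.87 on vehicle replicate 4, 13.63 to 13.67 on the others; 0.826), C5 (11.23 on vehicle replicate 4, 11.79 to 11.89 on the others; 0.838), Acta1 (13.76 on vehicle replicate 4, 13.22 to 13.35 on the others; 0.763), Arrdc4 (11.98 on vehicle replicate 4, 12.35 to 12.43 on the others; 0.819), Gucy2c (12.13 on vehicle replicate 4, 12.52 to 12.59 on the others; 0.849) and Atf3 (11.25 on vehicle replicate 4, 11.47 to 11.56 on the others; 0.723), with the log2 signal first and the share last. The other 2 vehicle cases were Eci2 (14.03 on vehicle replicate 1, 13.76 to 13.77 on the others; 0.942) and Tnfaip3 (12.20 on vehicle replicate 5, 12.44 to 12.50 on the others; 0.800). In treated wells the 13 cases were C3 (14.27 on treated replicate 3, 14.54 to 14.64 on the others; 0.719), Eci2 (14.90 on treated replicate 2, 15.08 to 15.12 on the others; 0.830), Mrps18a (13.99 on treated replicate 2, 13.80 to 13.83 on the others; 0.819), Hilpda (13.89 on treated replicate 3, 13.71 to 13.74 on the others; 0.803), Aadat (13.48 on treated replicate 3, 13.29 to 13.34 on the others; 0.733), Vldlr (13.20 on treated replicate 3, 13.50 to 13.54 on the others; 0.880) and Cryab (12.42 on treated replicate 1, 12.78 to 12.88 on the others; 0.795), and Cab39 (12.28 on treated replicate 3, 12.58 to 12.70 on the others; 0.723), Acsl3 (12.92 on treated replicate 5, 12.82 to 12.84 on the others; 0.749), F5 (11.26 on treated replicate 3, 11.73 to 11.88 on the others; 0.773), Arrdc4 (10.58 on treated replicate 3, 10.89 to 11.01 on the others; 0.725), Tap1 (9.28 on treated replicate 5, 8.83 to 8.88 on the others; 0.895) and Gpx8 (8.20 on treated replicate 5, 8.79 to 9.01 on the others; 0.733).

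The change at 1000 µM differed between 48 and 24 h, by limma's interaction test at an adjusted p under 0.05, for 30 of the named genes. The log2 difference, 48 h minus 24 h, was positive for 15. These were Cyp3a2 (1.66), Cxcl9 (0.94), Spc24 (0.93), Adgrv1 (0.92), Sult2a6 (0.88), Fabp1 (0.78), Fads1 (0.74), Aqp7 (0.66), Afm (0.55), Mbl1 (0.54), Cyp8b1 (0.51), Acot8 (0.48), Hgd (0.48), Crp (0.46) and Aadat (0.39). It was negative for 15, namely Il1r2 (-2.70), Npy (-1.31), Gpx8 (-1.17), S100a6 (-1.05), Arrdc4 (-0.87), A2m (-0.78), Abhd2 (-0.78), Cyp4a1 (-0.59), Cryab (-0.52), Ahsg (-0.45), Apoa5 (-0.44), C1s (-0.41), Fn1 (-0.41), Ccng1 (-0.34) and Serpina3n (-0.34). The treated mean of Il1r2 at 48 h lay under the low-signal limit, so the size of its difference rests on a dim signal. Adjusted p-values ran from 9.04e-11 to 0.0445. Without the 4 vehicle arrays of raised actin ratio the number of such genes over the whole table was 38 in place of 102.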

How the results depend on the processing

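Of the 250 named genes, between 231 and 250 kept their direction and side of the threshold under each change of scaling, filter, pseudocount, variance trend, probe set choice, fitted arrays or actin covariate, and between 244 and 247 under each single array left out. The vehicle arrays mattered most: 168 kept theirs without the 4 vehicle arrays of raised actin ratio, against 199 to 212 with each of those 4 as the only vehicle array. Signs turned without the 4 arrays for Dlst (0.0133), Id2 (-0.16), Lpin2 (0.11), Ogdh (0.18), Slc25a23 (0.12), Slc30a1 (-0.13) and Srebf2 (0.13). They also turned with vehicle array 1 alone for Cks2 (0.0734) and Lrp1 (-0.0463) and with vehicle array 3 alone for Sqle (0.00927). The cause was not tested.

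The main count of 3132 was 1177 without the 4 vehicle arrays (617 higher, 560 lower). With vehicle array 2, 3 or 5 alone it was 1448 (654 higher, 794 lower), 1649 (777 higher, 872 lower) and 1311 (609 higher, 702 lower). Higher calls were 798 with array medians centred and 1966 with every probe set tested on its own. Genes at or over 2-fold, 199 in the main fit, were 362 with every probe set, 312 with no low-signal filter and 328 with vehicle array 1 alone. At 24 h, 1284 genes changed with array medians centred, in place of 2051. The difference between times, 102 genes, gave 16 with centred medians, 157 with quantile normalization, 65 with no variance trend and 38 without the 4 vehicle arrays, and 63 to 322 when single arrays were left out, 322 without vehicle 48 h replicate 4, 203 without vehicle 24 h replicate 1. The difference between doses, 7 genes, gave 2 with centred medians, 13 with every probe set and 1 to 20 when single arrays were left out (20 without 1000 µM replicate 3, 15 without 250 µM replicate 1, 1 without 1000 µM replicate 2 or 250 µM replicate 3). The actin ratio difference of -0.415 ranged from -0.584 to -0.235 over single arrays left out, the lower end being that without vehicle replicate 4. The titles number the arrays in 5 runs of 6, each run holding every group once, and the labels do not say what a run shares. In 1 of 5 runs the vehicle and 1000 µM arrays at 48 h deviated together at a correlation over 0.1 (-0.10 to 0.14). Of these 10 arrays 2 correlated best with their own run. For 1000 and 250 µM at 48 h it was 2 of 5 runs and 4 of 10 arrays. Over all 15 pairs of groups 19 of 75 same-run pairs of arrays were over 0.1, and 1 to 6 of 10 arrays correlated best with their own run. A fit with the run numbers as a replicate block was chosen after seeing the data. It gave 3255 genes at 48 h, 2132 at 24 h, 124 between times and 7 between doses. It kept 1193 of 1207 higher and 1897 of 1925 lower calls.

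Limits: each group has 5 wells of unstated animal origin, 1 vehicle array at 48 h lacks the raised actin ratio of the other 4, and small changes turned with it more often than changes of 2-fold or more. MAS5 detection calls were not used here, so dim genes are bounded by the low-signal limit only.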
